A study of Zea mays with 24 samples.

Results

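The data on proteinase inhibitors cover 3 maize genes of different inhibitor families: MPI (GRMZM2G028393, also named sci1), wip1 (GRMZM2G156632) and cpi2 (GRMZM2G012160). They are among the 39634 genes in the authors' deposited tables and were found by their identifiers. They were chosen because earlier results of the same tables showed opposite changes between the groups, so their levels and changes are a description and no test is drawn from them. MPI, the maize proteinase inhibitor, belongs to the potato inhibitor I family, whose members block serine proteinases such as subtilisin and chymotrypsin. wip1 encodes a wound-induced inhibitor of the Bowman-Birk type, a family that blocks serine proteinases. cpi2 encodes a cystatin, a small protein that blocks papain-like cysteine proteinases. Plants use such inhibitors against the gut enzymes of feeding insects and to hold back their own proteinases, and wounding and jasmonate are well-known inducers of many of them.

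RNA-seq libraries came from leaf 2 of dct2-1 and wild-type seedlings of the maize inbred W22 at 9 days of age, cut into 4 segments named by their position relative to the ligule. Segment -4 is the base of the blade and is not yet photosynthetic, segment -1 is the transition from sink to source tissue, segment +4 is lit mid-leaf and segment +10 is the tip. dct2-1 is a mutant allele of pDCT2, which encodes a dicarboxylate transporter of the plastid envelope, and nothing in the labels tells the groups apart other than genotype and segment. There were 24 libraries in 8 groups, 3 for each genotype and segment, each from 15 pooled plants. All plants had 16 h of light per day at 500 µmol per square metre per second, 28 °C and 40% humidity. The tables give 1 FPKM value (sequenced fragments per kilobase of transcript, a level corrected for gene length and library size) for each of 2 groups named q2 and q1, with no value for a single library, so no SD can be given, and read depth is unknown. They do not say which of q2 and q1 is dct2-1. pDCT2 had 7.84, 12.5, 8.91 and 9.50 FPKM in q2 from base to tip, against 37.8, 657, 633 and 310.4 FPKM in q1. All differences are given as q2 relative to q1. The errors given after ± are log2 changes divided by Cuffdiff's statistic in the authors' deposited table, read as standard errors. The deposited p-values do not follow from these errors in every case, so the errors are a rough guide to precision. The 4 tables were normalised separately, which bears on every level set across segments.

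The leaf identity of the segments was checked on marker genes. The bundle sheath gene me3 (NADP-malic enzyme) stood at 78.5 FPKM in q2 and 31.4 FPKM in q1 at segment -4, and at 2873 or more in q2 and 2737 or more in q1 at the other segments. The mesophyll markers pep1, pdk1 and mdh6 and the bundle sheath markers rbcS and rca1 were also higher in q2 at segment -4. There pdk1 had 600 FPKM in q2 and 130 FPKM in q1, and rca1 had 219 FPKM in q2 and 59.1 FPKM in q1. Whether the base segments of q2 and q1 were at the same stage was not tested, which bears on each contrast at -4. The DNA replication gene MCM6 stood at 29.6 FPKM in q2 and 39.3 FPKM in q1 at segment -4 and under 1 FPKM beyond it. RNRS1, another gene of DNA replication, did not share that course: it had 53.0 FPKM in q2 and 104 FPKM in q1 at -4 and 2.12 FPKM in q2 and 2.46 FPKM in q1 at -1, but 20.5 FPKM in q2 and 3.99 FPKM in q1 at +4 and 19.5 FPKM in q2 and 3.88 FPKM in q1 at +10. Seed tissue is another source of proteinase inhibitors, and the summed level of 9 zein genes, its storage protein markers, was at most 0.507 FPKM in q2 and 0.257 FPKM in q1. Of the other genes fixed as seed markers, sh2 stayed under 1 FPKM but bt2 did not. bt2 had 31.4 FPKM in q2 and 30.3 FPKM in q1 at -4, and 9.95 FPKM in q2 and 17.4 FPKM in q1 at +10.

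MPI was higher in q2 at all 4 segments, with the widest gaps in the lit part of the leaf. The gene lies at chromosome 8, 134463275 to 134464177, in the deposited coordinates (genome build unstated in the sources used here). In the authors' deposited tables MPI had 146 FPKM in q2 and 52.7 FPKM in q1 at segment -4, and 340 FPKM in q2 and 203 FPKM in q1 at segment -1. It had 1100 FPKM in q2 and 46.8 FPKM in q1 at segment +4, and 1739 FPKM in q2 and 152 FPKM in q1 at segment +10. Each q2 value lay above its q1 partner. The log2 change was 1.47 ± 0.29 at segment -4, 0.74 ± 0.38 at -1, 4.55 ± 0.35 at +4 and 3.52 ± 0.27 at +10. As folds these are 2.77, 1.67, 23.5 and 11.5. In whole leaf segments, a change in the number of cells that express a gene and a change in RNA per cell cannot be told apart.

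The order of the segments differed between the groups for MPI. In q2 the level was higher at each segment nearer the tip, and the tip held 11.9 times the level of the base. In q1 the highest level, 203 FPKM, was at segment -1 and the lowest, 46.8 FPKM, at segment +4. The step from -1 to +4 multiplied the MPI level by 3.24 in q2 and by 0.230 in q1. Without values per library, it cannot be said which neighbouring levels differ beyond their spread, such as 52.7 and 46.8 FPKM at segments -4 and +4 in q1.

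At segment +10 MPI was among the most abundant transcripts in q2. Only 33 genes had a higher FPKM value in q2 there, against 735 genes with a higher value than MPI in q1. At segment +4 these numbers were 71 in q2 and 2054 in q1. MPI held 0.258% of all FPKM in q2 and 0.0177% in q1 at segment +10, and 0.175% in q2 and 0.00544% in q1 at segment +4. The values at +4 are affected by 2 very abundant genes of status HIDATA, for which Cuffdiff gave no estimate in 1 group: pdk1 is listed at 0 in q2 and 27347 FPKM in q1, and pep1 at 9116 FPKM in q2 and 0 in q1. Without these and 1 gene of status FAIL, MPI held 0.177% in q2 and 0.00562% in q1, and the counts of higher genes at +4 leave out pdk1 in q2 and pep1 in q1. Among tested genes with a level above 0 in both groups, 18 of 17932 had a larger log2 change than MPI at +4 and 60 of 16235 at +10. At segments -4 and -1, 637 of 20160 and 1836 of 18794 did.

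**Figure D1:**
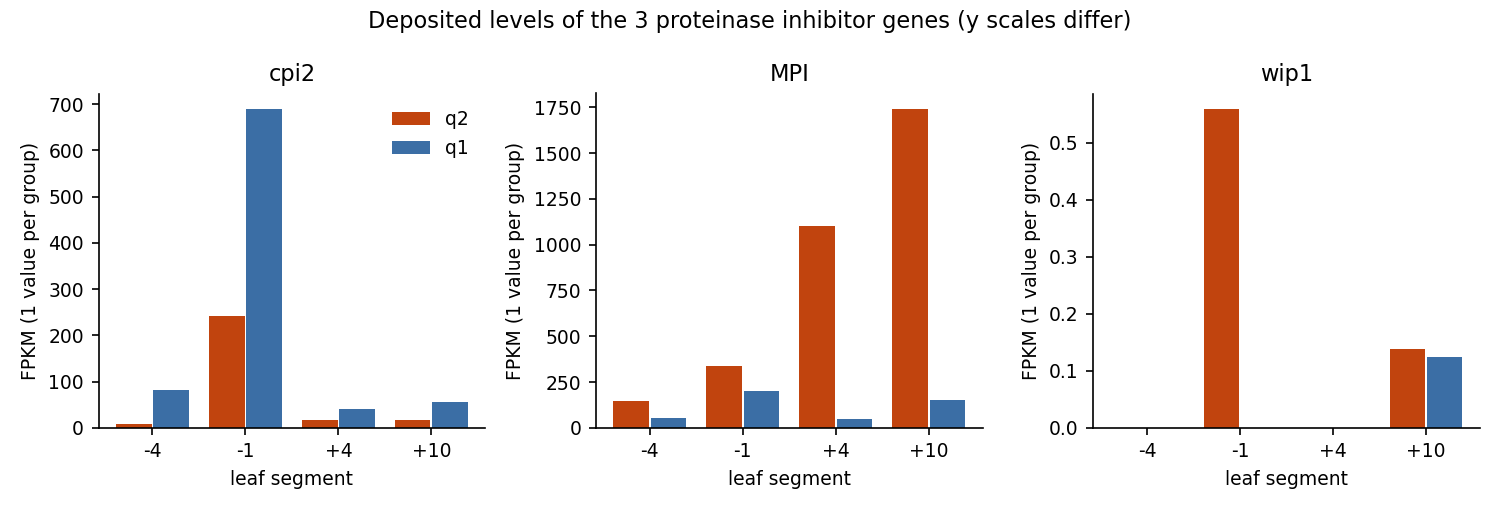
Deposited FPKM of cpi2, MPI and wip1 (1 value per group, no error available) at the 4 leaf segments, with q2 left of q1 and a separate y scale for each gene. MPI reaches 1739 FPKM in q2 at segment +10, cpi2 peaks in both groups at segment -1, and wip1 stays under 1 FPKM.

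wip1, the Bowman-Birk member, was listed at 0 or under 1 FPKM in every group. It lies at chromosome 8, 12273513 to 12274222, in the deposited coordinates. The authors' deposited tables list wip1 at 0 in q2 and at 0 in q1 at segments -4 and +4, at 0.558 FPKM in q2 and 0 in q1 at segment -1, and at 0.138 FPKM in q2 and 0.123 FPKM in q1 at segment +10. Its status is untested in all 4 tables, so no change is given for it. Of the 3 genes, 2 were therefore tested at every segment, and the opposite changes by which the genes were chosen concern MPI and cpi2.

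cpi2 was lower in q2 at all 4 segments, and the fold between the groups was largest at the base. The gene lies at chromosome 8, 171412336 to 171415029, in the deposited coordinates. In the authors' deposited tables cpi2 had 8.52 FPKM in q2 and 82.1 FPKM in q1 at segment -4, and 241 FPKM in q2 and 689 FPKM in q1 at segment -1. It had 17.5 FPKM in q2 and 41.0 FPKM in q1 at segment +4, and 16.9 FPKM in q2 and 55.3 FPKM in q1 at segment +10. Each q2 value lay below its q1 partner. The log2 change of cpi2 was -3.27 ± 0.29 at segment -4, -1.52 ± 0.33 at -1, -1.23 ± 0.31 at +4 and -1.71 ± 0.27 at +10, which puts q1 9.64-fold, 2.86-fold, 2.34-fold and 3.26-fold higher. At +4 the size depends on scaling: with each group divided by its sum of FPKM the log2 change of cpi2 was -0.77, and -0.80 when the 3 genes without a usable estimate there (statuses HIDATA and FAIL) were left out of the sums.

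Both groups had their cpi2 peak at segment -1, the sink-to-source transition. The level there was 28.3 times that of segment -4 in q2 and 8.38 times in q1. From segment -1 to +4 the level was multiplied by 0.0726 in q2 and by 0.0595 in q1. The lowest level stood at segment -4 in q2 and at segment +4 in q1. Only 13 of 20160 tested genes with a level in both groups had a smaller log2 change than cpi2 at segment -4, against 385 of 18794 at -1, 2176 of 17932 at +4 and 822 of 16235 at +10.

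The share of all tested genes called, meaning an adjusted p under 0.05 in the authors' deposited table, gives the background for these directions. MPI was called higher in q2 at all 4 segments, where 15.2%, 9.48%, 19.5% and 21.5% of tested genes were called higher from base to tip. cpi2 was called lower at all 4 segments, where 12.7%, 8.22%, 22.8% and 22.3% were called lower. The genes were picked on these contrasts, so nothing is read from the counts.

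**Figure D2:**
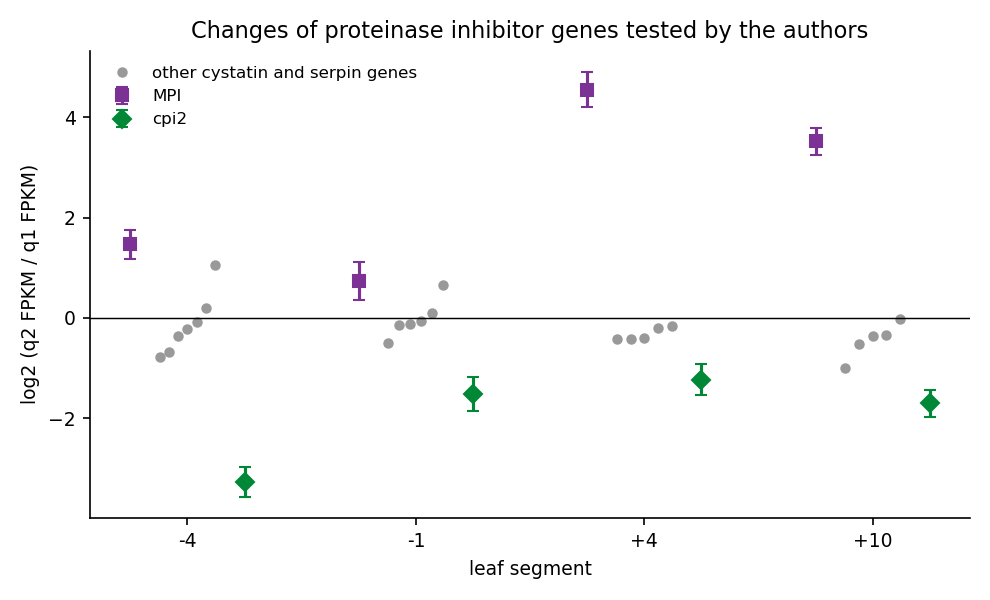
Log2 change of q2 over q1 at the 4 leaf segments for MPI (squares) and cpi2 (diamonds), with error bars of 1 standard error implied by the deposited statistic, and for the other cystatin and serpin genes the authors tested (grey points, 1 per gene, errors not drawn). MPI lies above 0 and cpi2 below 0 at each segment, and the grey points lie between -0.99 and 1.06.

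The order of MPI and cpi2 in abundance differed between the groups at segments -4 and -1 and was the same at +4 and +10. The pair was chosen for opposite changes, so a higher ratio of MPI to cpi2 in q2 follows from that choice. FPKM is a level per length, so levels of different genes can be set beside each other. At segment -4 MPI had 17.2 times the level of cpi2 in q2 and 0.642 times in q1, and at segment -1 it had 1.41 times in q2 and 0.295 times in q1. At segment +4 the ratio was 62.9 in q2 and 1.14 in q1, and at segment +10 it was 103 in q2 and 2.74 in q1. MPI was thus the higher of the pair at every segment in q2, while in q1 cpi2 was the higher at -4 and -1 and MPI at +4 and +10. The q1 levels at +4, 46.8 FPKM for MPI and 41.0 FPKM for cpi2, were the closest.

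Other inhibitor genes were found by symbol: 8 cystatin genes and 2 serpin genes, serpins being serine proteinase inhibitors of another fold. Of these 10, 7 reached 5 FPKM in some group. cc10, cc6 and cc8 stayed under 1 FPKM and were tested nowhere. The most abundant were cc5, with a mean of 145 FPKM over the 8 group values, and Cystatin-1, with 124 FPKM.

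At segment -4 this list had 1 rise and 3 falls among 7 tested members, beside 15.2% called higher and 12.7% called lower over all tested genes. The rise was that of cc5, at 105 FPKM in q2 and 50.2 FPKM in q1 (log2 change 1.06 ± 0.26). The falls were those of both serpin genes, Serpin-Z1 GRMZM2G066996 (-0.67 ± 0.25) and Serpin-Z1 GRMZM5G865319 (-0.78 ± 0.37), and Cystatin-1 (-0.36 ± 0.25). That of Cystatin-1 had an adjusted p-value of 0.049 from Cuffdiff, close to the threshold. The median log2 change of the list was -0.23, against 0.02 for all tested genes.

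At segments -1 and +4 Cuffdiff called none of the other inhibitors. At -1 the count was 0 of 6 tested, with 1 higher and 1 lower at an unadjusted p under 0.05 (15.5% and 13.8% of all tested genes), and the median log2 change was -0.09 beside 0.01 for all tested genes. At +4 the count was 0 of 5, with 0 higher and 2 lower at an unadjusted p under 0.05 (23.6% and 26% of all tested genes), and the median was -0.39 beside 0.01. At the adjusted threshold 9.48% of tested genes were called higher and 8.22% lower at -1, and 19.5% higher and 22.8% lower at +4. At +4, where MPI stood at 23.5-fold, cc5 had 110 FPKM in q2 and 144 FPKM in q1 and Cystatin-1 had 102 FPKM in q2 and 114 FPKM in q1.

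At segment +10, of 5 tested members 0 rose (0 also at an unadjusted p under 0.05) and 4 fell. Over all tested genes 21.5% were called higher and 22.3% lower, and 25.2% were higher at an unadjusted p under 0.05. cc3 had 27.4 FPKM in q2 and 54.3 FPKM in q1 (-0.99 ± 0.34) and cc4 had 35.5 FPKM in q2 and 50.6 FPKM in q1 (-0.51 ± 0.27). The falls of cc5 (-0.35 ± 0.26) and Cystatin-1 (-0.36 ± 0.27) had adjusted p-values of 0.0468 and 0.0446 from Cuffdiff, close to the threshold. The median of the list was -0.36, against 0.02 for all tested genes. With each group divided by its sum of FPKM, the list medians were -0.19, 0.01, 0.06 and -0.01 from base to tip, against 0.07, 0.11, 0.46 and 0.37 for all tested genes, and 3 of the 4 falls at +10 stayed below 0.

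The summed level of the 13 inhibitor genes, members included, showed how much of this list's level MPI made up. The list is not all inhibitors of the leaf: it holds no other gene of the families of MPI and wip1. It was found by symbol, and 2695 of 39634 identifiers had a usable one. MPI was chosen for being higher in q2, so its larger share there is a description. The sum was 459 FPKM in q2 and 439 FPKM in q1 at segment -4, and 946 FPKM in q2 and 1277 FPKM in q1 at segment -1. It was 1376 FPKM in q2 and 406 FPKM in q1 at segment +4, and 2121 FPKM in q2 and 692 FPKM in q1 at segment +10. MPI held 31.8% of the sum in q2 and 12.03% in q1 at -4, and 35.9% in q2 and 15.9% in q1 at -1. It held 80.0% in q2 and 11.5% in q1 at +4, and 82.0% in q2 and 21.9% in q1 at +10. Without MPI the sum was lower in q2 at all 4 segments, for example 276 FPKM in q2 and 359 FPKM in q1 at +4, but it still held cpi2, which was chosen for being lower in q2. With cpi2 left out as well, a choice made after seeing the data, the sum was 304 FPKM in q2 and 304 FPKM in q1 at -4 and 365 FPKM in q2 and 385 FPKM in q1 at -1. It was 258 FPKM in q2 and 318 FPKM in q1 at +4, and 365 FPKM in q2 and 486 FPKM in q1 at +10. The FPKM of all genes together was also lower in q2 at all 4 segments. At +4 that total was 629078 FPKM in q2 and 861222 FPKM in q1. The inhibitor sums were not scaled for this, so their differences between q2 and q1 depend on scaling.

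**Figure D3:**
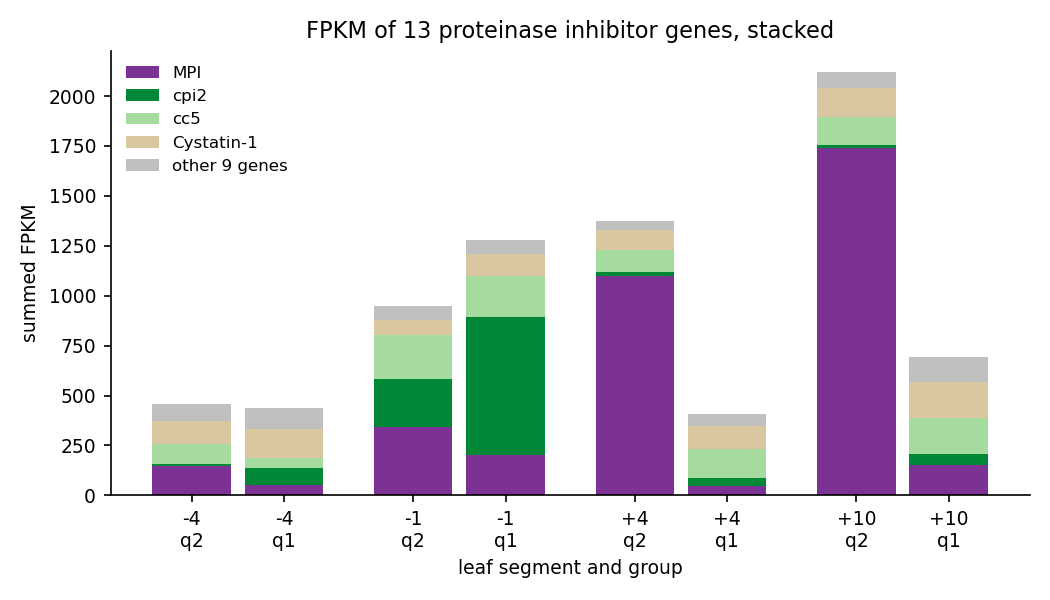
Stacked FPKM of 13 proteinase inhibitor genes at each leaf segment, q2 left of q1, from 1 deposited value per gene and group. MPI fills 80.0% of the q2 bar at segment +4 and 82.0% at segment +10, and cpi2 fills 53.9% of the q1 bar at segment -1.

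The share of cpi2 in the total of the listed cystatins was lower in q2 at all 4 segments. cpi2 was chosen for being lower in q2, so this share is a description and nothing is read from its direction. cpi2 made up 3.0% of the summed cystatin level in q2 and 23.9% in q1 at segment -4, and 40.9% in q2 and 65.2% in q1 at -1. At +4 the share was 6.65% in q2 and 11.9% in q1, and at +10 it was 4.65% in q2 and 10.6% in q1. The other 8 cystatin genes together stood at 279 FPKM in q2 and 262 FPKM in q1 at segment -4, where cpi2 was 9.64-fold higher in q1.

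Papain-like cysteine proteinases are the enzymes that cystatins such as cpi2 act on. No subtilase, a serine proteinase, was matched by symbol. The search found 8 cysteine proteinase genes, among them the legumain-type see2b, so the counts cover more than papain-like genes. Of 6 tested at each segment, 4 fell at -4, 3 at -1, 5 at +4 and 5 at +10, and none rose. The share of all tested genes called lower was 12.7%, 8.22%, 22.8% and 22.3% in that order. The shares called higher were 15.2%, 9.48%, 19.5% and 21.5%, and at an unadjusted p under 0.05 they were 20.7%, 15.5%, 23.6% and 25.2%. At an unadjusted p under 0.05, 0 of the list were higher at -4, -1 and +4 and 1 at +10. The medians of the log2 changes were -0.54, -0.56, -0.91 and -0.73, against 0.02, 0.01, 0.01 and 0.02 for all tested genes.

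At segments +4 and +10 the deepest falls in this list were those of see2b and see1, genes linked to senescence. see2b, a legumain-type proteinase gene, had 8.16 FPKM in q2 and 53.2 FPKM in q1 at segment +4 (-2.71 ± 0.33) and 26.3 FPKM in q2 and 148 FPKM in q1 at +10 (-2.49 ± 0.26). see1, a papain-type gene, had 19.8 FPKM in q2 and 84.9 FPKM in q1 at +4 (-2.10 ± 0.30) and 44.7 FPKM in q2 and 162 FPKM in q1 at +10 (-1.86 ± 0.26). Both fell at all 4 segments. mir3 fell at -1, +4 and +10, with 120 FPKM in q2 and 191 FPKM in q1 at the tip, and ccp1 fell at -4, +4 and +10. see2a fell at +4 (-0.43 ± 0.31) and +10 (-0.63 ± 0.26); at +4, 1 of the 5 falls of the list did not stay below 0 when each group was divided by its sum of FPKM, and it was that of see2a. mir2 was below 5 FPKM throughout and fell at -4. mir1 was listed at 0 in every group, and vpe1 stayed under 1 FPKM.

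Genes of jasmonate synthesis and the wound response were set beside the inhibitors, 11 in all. Of the tested ones 4 of 10 fell at segment -4, 6 of 11 at -1, 8 of 11 at +4 and 10 of 10 at +10. Over all tested genes 12.7%, 8.22%, 22.8% and 22.3% were called lower in the same order, and 15.2%, 9.48%, 19.5% and 21.5% higher. None rose in any of the 4 tables, and at an unadjusted p under 0.05 the higher counts were 1, 0, 0 and 0, beside 20.7%, 15.5%, 23.6% and 25.2% of all tested genes. The medians of the log2 changes were -0.25, -0.82, -1.30 and -1.06, against 0.02, 0.01, 0.01 and 0.02 for all tested genes. lox10, a lipoxygenase gene, had 527 FPKM in q2 and 1913 FPKM in q1 at +4 (-1.86 ± 0.36). aos1, an allene oxide synthase gene, had 19.0 FPKM in q2 and 51.9 FPKM in q1 there (-1.45 ± 0.30). The bHLH factor gene MYC2a had 6.85 FPKM in q2 and 17.5 FPKM in q1 (-1.35 ± 0.32), and aos2 had 1.05 FPKM in q2 and 7.56 FPKM in q1 (-2.84 ± 0.57). At +4 and +10 these genes thus lay on the same side as cpi2 and on the other side from MPI. Whether they have a part in the changes of MPI or cpi2 was not tested.

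**Figure D4:**
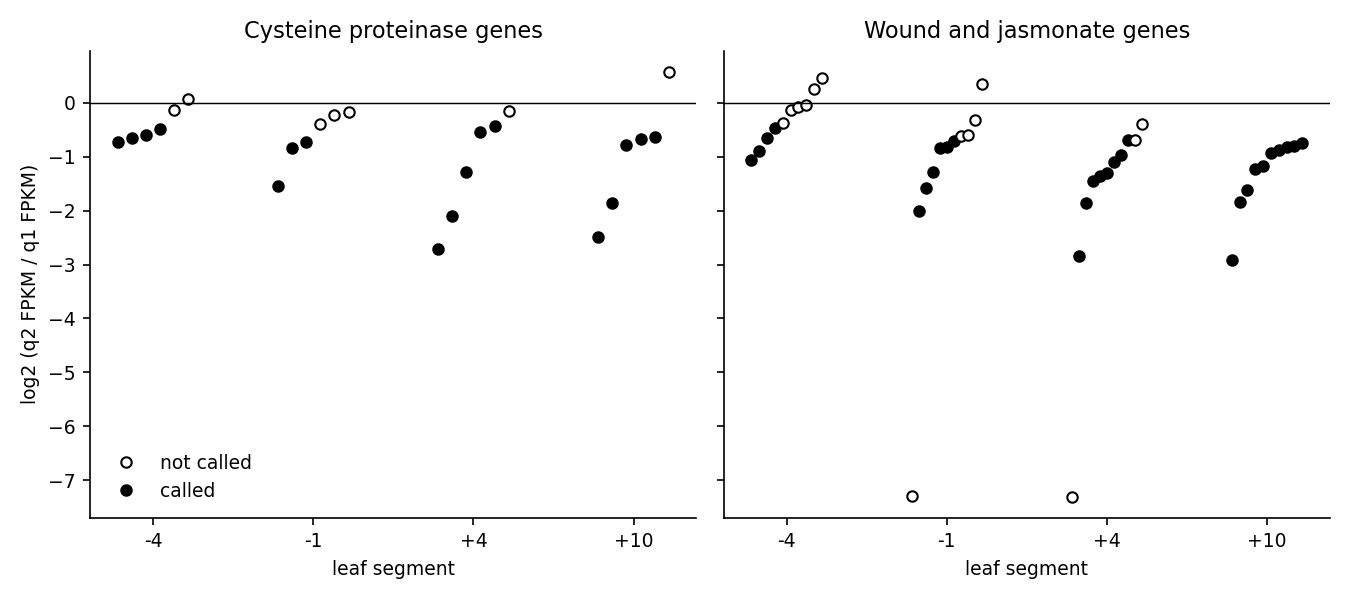
Log2 change of q2 over q1 for cysteine proteinase genes (left) and wound and jasmonate genes (right) at the 4 leaf segments, 1 point per tested gene, filled where the authors' adjusted p was under 0.05. The called genes all lie below 0, and the open points near -7.3 are tps10, which was close to 0 FPKM in q2.

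The genes with the pattern most like each member were ranked by Pearson r of log2(FPKM + 1) over the 8 group values, among 14134 genes tested in all 4 tables with at least 5 FPKM in some group, of which 1546 had a usable symbol. The 8 values share their tables and normalisation, and with so few points a high r carries little weight. Of the 14134 genes, 85 had r over 0.9 with MPI and 10 with cpi2. For MPI the named genes were GATA5, a GATA-type transcription factor gene (r = 0.94), SnrK1 (0.93), ERTC (0.92), the small heat shock protein gene hsp18 (0.91) and the heat shock factor gene Hsf03 (0.91). hsp18 had 708 FPKM in q2 and 31.1 FPKM in q1 at segment +4, and 1105 FPKM in q2 and 180 FPKM in q1 at +10. The MPI list was unstable, since 1 of the 5 genes was kept when Spearman's rho replaced r.

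For cpi2 the named genes were plt1 (r = 0.90), AAMT1, an anthranilic acid methyltransferase gene (0.88), the auxin response factor gene ARF11 (0.87), sir (0.85) and the carotenoid isomerase gene CRTISO1 (0.85). AAMT1 had 26.7 FPKM in q2 and 277 FPKM in q1 at segment -1, its peak in both groups, and plt1 had 573 FPKM in q2 and 735 FPKM in q1 there. MPI and cpi2 had an r of -0.24 with each other. wip1 had no rank because it was tested in no table.

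All 3 members lie on chromosome 8 in the deposited coordinates but far from each other, and none overlaps another gene of the tables. The 2 nearest genes on either side that were tested in all 4 tables were compared with cpi2 and MPI, a choice made after the members' values were seen. Over all tested genes 27.9%, 17.7%, 42.2% and 43.8% were called in either direction from base to tip. Of 16 such comparisons around MPI 4 were called, 2 higher and 2 lower in q2, with log2 changes between -0.69 and 1.85 over all 16. Those higher were GRMZM2G364612 at segment -1, with 12.9 FPKM in q2 and 3.59 FPKM in q1 (1.85 ± 0.44), and GRMZM2G113415 at +4, with 11.9 FPKM in q2 and 5.39 FPKM in q1 (1.14 ± 0.46), which lie 233 kb and 294 kb away. The closest, GRMZM2G028986, lies 0.918 kb away and fell where MPI was highest, with 138 FPKM in q2 and 214 FPKM in q1 at segment +4 (-0.63 ± 0.30) and 156 FPKM in q2 and 252 FPKM in q1 at +10 (-0.69 ± 0.26). Of 16 comparisons around cpi2 2 were called, both higher in q2, and the range was -0.34 to 0.75. The closest, GRMZM2G310115 at 3.49 kb, had 54.5 FPKM in q2 and 65.6 FPKM in q1 at segment -4 and was not called there. It was called higher at +10, with 40.5 FPKM in q2 and 27.8 FPKM in q1 (0.55 ± 0.26). The other call was GRMZM2G176028 at -4, with 18.3 FPKM in q2 and 10.9 FPKM in q1 (0.75 ± 0.29).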

How the data were processed

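Per the submitters' processing notes, reads were aligned with GSNAP and groups compared with Cuffdiff; the sources used here do not give versions, build, annotation, strand or the handling of reads shared by near-identical genes, so cystatin genes of like sequence are uncertain. The deposited tables, in Cuffdiff's layout per the file headers, hold for each gene the FPKM of q1 and q2 (the unit Cuffdiff writes there; the header names none) with the 3 libraries per group pooled by the authors, the authors' test statistic (a signed score), and the authors' p-value and adjusted p-value (q). Segments were assigned to tables from the sample descriptions.

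Log2 changes are the base-2 log of the ratio of q2 to q1, taken from the deposited FPKM values because the deposited fold and statistic columns hold spreadsheet errors in some cells. The error after ± is the log2 change divided by the deposited statistic, read as a standard error. The deposited p-values do not always follow from it. At segment +10 cc5 had -0.35 ± 0.26 and an adjusted p of 0.0468 from Cuffdiff. At segment -1 tps10 had -7.29 ± 2.38 and an adjusted p of 0.454 from Cuffdiff. A call is a deposited adjusted p under 0.05 among genes of status OK, numbering 20174, 18810, 17969 and 16272 from base to tip. Nothing says that the 3 libraries came from separate growth batches, so p-values measure the spread between these pooled samples.

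The members, gene lists and tests were chosen with earlier results of these data known. Names came from RefSeq's gene table for Zm-B73-REFERENCE-NAM-5.0; it has no gene descriptions and covered 18775 of 39634 identifiers; its coordinates were not used. After the list matches were seen, cys1, cys2 and tin1 were removed from the inhibitor list because these symbols name other genes. The planned search by protein similarity was not run. Named genes follow a rule: listed inhibitors of at least 5 FPKM, the 6 proteinase and 4 wound genes highest in mean FPKM, and the 5 named genes most like each member. Genes outside it are named only to account for a list or a neighbour. Python 3.11.15 with pandas 2.3.3 and scipy 1.17.1 was used, and the ranking and adjustment were tested on simulated data. Settings tried were pseudocounts of 1 and 0.1 FPKM, scaling, thresholds, a minimum of 1 FPKM and Spearman's rho.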

Additional observations from a re-analysis of the deposited data

How the results depend on the processing

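No paired analysis was possible because the tables hold 1 value per group and no replicate; for the same reason no replicate could be left out. The directions of MPI and cpi2 were the same at the 4 segments under both pseudocounts and both other scalings, for which p-values were not recomputed, and both stayed called at an adjusted p under 0.01. Dividing by the sum of FPKM raised the log2 change of every tested gene by 0.04 at -4, 0.10 at -1, 0.45 at +4 and 0.35 at +10, and multiplied those of MPI and cpi2 by 0.631 to 1.14; without the genes of status HIDATA or FAIL, an alternative chosen after seeing the data, the shift at +4 was 0.43. Centring on the median of tested genes multiplied them by 0.984 to 1.01. With a 2-fold minimum MPI at segment -1 (log2 change 0.74) was no longer called. That minimum also left 0 of the other inhibitors lower at -4 and 0 at +10. At an adjusted p under 0.01, 2 were lower at -4 and 2 at +10. With cys1, cys2 and tin1 kept, an alternative chosen after seeing the data, 2 listed genes were lower at +4. Under Spearman's rho 3 of the 5 genes most like cpi2 were kept and 1 of the 5 most like MPI; the cause was not tested. Depth is unknown, so how low a level of wip1 could have been seen cannot be given.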
